A study of Homo sapiens with 3 samples.

Results

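The kinesin motor family was taken as every row of the deposited read count table whose symbol is KIF followed by a number, with an optional letter A, B or C and an optional digit after it. The rule found 39 genes among the 27574 genes of the table. The data are RNA sequencing read counts from 3 libraries of H82R cells, named here replicates 1, 2 and 3. H82 is an established human line of small cell lung cancer, a neuroendocrine tumour. According to the labels every library comes from cells given etoposide, a topoisomerase poison, together with cisplatin, which damages DNA by forming adducts. No untreated or parental sample was analysed here, so the counts show how high each kinesin gene stood and how far the libraries differed, and not the effect of the drugs.

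Replicates 1, 2 and 3 held 25013265, 42610181 and 23868201 counts, of which kinesin genes took 0.313%, 0.277% and 0.317%. All 8 neuroendocrine markers looked up were detected, with summed levels of 1333, 1344 and 1345 CPM, counts scaled to library size. Markers of other cell types were low: 18 to 41 counts in all for 6 fibroblast genes, 27 to 67 counts for 4 endothelial genes and 1 to 2 counts for 3 erythroid genes. The 6 leukocyte markers summed to 26.8 to 35.9 CPM, and 2 of them were detected, CD3E and CD68 (97.6% of its coding bases belong also to a gene on the same strand), while the defining leukocyte gene PTPRC had 6, 10 and 7 counts. The labels do not say whether separate cultures were used, so p-values reflect differences among these 3 samples alone, possibly technical ones.

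Kinesins are motor proteins that use ATP to move along microtubules or to take tubulin off their ends. In dividing cells some members build the spindle, hold and align chromosomes and complete cytokinesis. In neurons, and in the neuroendocrine cells that resemble them, other members carry vesicles, mitochondria and receptors along microtubules, and a further set works in the cilium. The 39 genes were sorted by these known roles into 14 division genes, 15 transport genes and 10 genes of the cilium or of other roles.

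Levels of different genes were compared as CPM per kb of exon, which takes account of transcript length. Detection was set at 10 or more counts in each library. By this rule 34 of the 39 kinesin genes were detected: 12 of 14 division genes, all 15 transport genes and 7 of 10 cilium and other genes. Of all 27574 genes of the table, 14612 were detected. The median detected gene stood at 5.55, 5.47 and 5.58 CPM per kb in replicates 1, 2 and 3. Of the 34 detected kinesin genes, 20 lay above that median and 7 below it in edgeR's quasi-likelihood test (adjusted p under 0.05, two-sided), and 7 were not distinguished from it. Over all 13533 genes tested, 45.8% were called above and 45% below, the background against which the kinesin counts are to be read. The median detected kinesin gene stood at 10.4 CPM per kb. By class the medians were 21.5 CPM per kb for division genes, 10.4 for transport genes and 2.55 for cilium and other genes, against 5.58 for all detected genes. Division genes made up 55.6%, 55.2% and 56.8% of the family's summed level per kb in the 3 libraries, but 40.8%, 38.9% and 42.8% of its read counts, the second measure taking no account of transcript length. The 5 highest genes by mean level were KIF2C, KIF5B, KIF11, KIF20A and KIF4A. In this order the values of neighbouring genes overlapped from KIF2C down to KIF2A, the eighth, while KIF1B, the ninth, lay below every value of KIF2A.

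**Figure D1:**
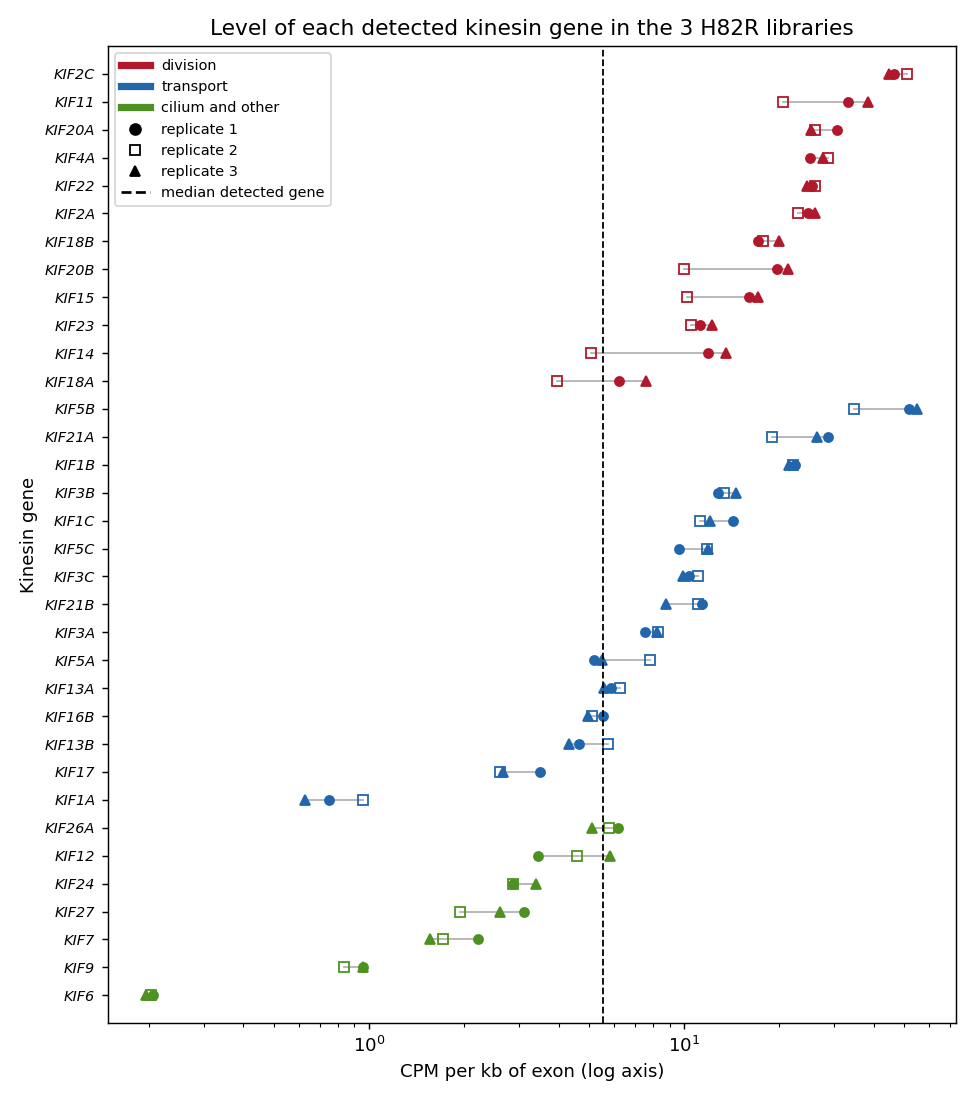
Level of the 34 detected kinesin genes in CPM per kb of exon on a log axis, with 1 symbol for each of the 3 libraries, a grey bar for their range and a dashed line at the median detected gene. Of 12 division genes, 11 were called above the line in the test and KIF18A was not, and the values of both KIF18A and KIF14 fall on either side of it; the open squares of replicate 2 stand apart to the left for KIF14, KIF20B, KIF11, KIF18A, KIF15, KIF5B and KIF21A.

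Among division genes 11 of 12 detected members lay above the median detected gene, none lay below it, and KIF18A was not distinguished from it. In bulk libraries a larger share of dividing cells and more RNA per dividing cell cannot be told apart. The spindle motor KIF11, a plus-end motor that pushes spindle poles apart and is the target of the monastrol class of inhibitors, stood at 33.2, 20.5 and 38.3 CPM per kb in replicates 1, 2 and 3. It lay 2.47 ± 0.11 (SE) above the median gene on the log2 scale (edgeR, adjusted p = 8.1e-08). KIF15, which can also drive pole separation, stood at 16.05, 10.2 and 17.1 CPM per kb, lowest in replicate 2 as KIF11 was. KIF11 lies on chromosome 10 from 92593286 to 92655395 (GRCh38).

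The highest kinesin gene by mean level per kb was KIF2C (47.4 CPM per kb, against 47.2 for KIF5B), although KIF5B was higher in replicates 1 and 3. Without length KIF1B, KIF5B and KIF21A exceeded it, at means of 391, 277 and 249 CPM against 173 CPM. KIF2C encodes MCAK, a microtubule depolymerase that corrects wrong attachments of chromosomes at centromeres. It stood at 46.2, 51.2 and 44.9 CPM per kb, with a log2 distance from the median gene of 3.10 ± 0.05 (SE; edgeR, adjusted p = 1.5e-10). KIF2C lies on chromosome 1 from 44739818 to 44767767. Its relative KIF2A, which removes tubulin at spindle poles and also acts in neurites, stood at 24.8, 23.0 and 26.1 CPM per kb. KIF2C was highest in replicate 2 and KIF2A lowest there, with SDs of 3.30 and 1.55 CPM per kb (n = 3), and both varied by more than counting error. The third member of this subfamily, KIF2B, had 0, 1 and 0 counts.

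Motors of chromosome arms and alignment differed among themselves. The chromokinesin gene KIF4A stood at 25.1, 28.6 and 27.6 CPM per kb, and KIF22, which encodes the chromokinesin Kid, at 25.5, 26.1 and 24.6 CPM per kb. The level of KIF22 in the 3 libraries was the same within counting error (chi-square test, adjusted p = 0.0947). In the annotation 13% of its exon bases lie opposite another gene, whose reads may be mixed in, as no strand setting is given for the counting. KIF18B, a kinesin-8 that shortens astral microtubules, stood at 17.2, 17.8 and 20.1 CPM per kb. KIF18A, the kinesin-8 that dampens chromosome movement at metaphase, stood at 6.22, 3.95 and 7.55 CPM per kb, below the median gene in replicate 2 and above it in the others. Its log2 distance from the median gene was 0.09 ± 0.15 (SE; edgeR, adjusted p = 0.607), and without replicate 2 it was 0.31 and called (adjusted p = 0.00819; from 1.2e-05 to 0.910 over its 12 alternatives).

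All 4 cytokinesis genes lay above the median gene. KIF20A, which brings regulators to the spindle midzone, led them with 30.7, 26.1 and 25.3 CPM per kb. KIF20B, a midbody motor, stood at 19.8, 10.0 and 21.4 CPM per kb. KIF23, the motor subunit of centralspindlin, was steadier, at 11.2, 10.5 and 12.3 CPM per kb. KIF14, which recruits citron kinase to the midbody, stood at 11.9, 5.08 and 13.6 CPM per kb, so that its value in replicate 2 lay below the median gene and those in replicates 1 and 3 well above it. KIF14 had a log2 distance from the median of 0.88 ± 0.20 (SE; edgeR, adjusted p = 0.00287), the largest SE among the division genes. With the longest transcript as its length in place of all exons, it was no longer called (edgeR, adjusted p = 0.0907, the highest of its 12 alternatives, with 7.4e-12 the lowest).

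Many genes of mitosis are repressed for part of the cell cycle by the DREAM complex. It binds a short element near the gene start, the cell cycle genes homology region (CHR). Many of these genes are activated in part through CCAAT boxes bound by NF-Y. RefSeq promoter windows (GRCh38.p14, 250 bases before to 50 after the annotated start) were matched by symbol to 33 of the 39 kinesin genes, 42 windows in all, and searched on both strands for the CHR core TTTGAA, its variants TTTAAA and TTCGAA, and for CCAAT. At least 1 of the 3 hexamers was found in 12 of 14 division genes, in 2 of 12 transport genes and in 1 of 7 cilium and other genes that had a window. Of all 27305 genes with a window 29.03% held one, and of the 10471 detected genes among them 23.7%. TTTGAA alone was found in 9 of 14 division genes, against 18.2% of all genes. Counted by windows, 25.1% of all 35116 windows held a hexamer and 34.6% held CCAAT. The box was found in 10 of 14 division genes, 4 of 12 transport genes and 3 of 7 others, against 39.7% of all genes. A hexamer and a CCAAT box together were found in 10 of 14 division genes, in 1 of 12 transport genes and in 11.7% of all genes. The division genes without a hexamer were KIF2A and KIF2B.

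The following stretches run from 90 bases before to 30 bases after the start, on the strand of the gene, 5′ to 3′. Capitals mark the hexamers and CCAAT boxes in either orientation, so that TTCAAA and ATTGG are the same motifs read on the opposite strand. They are shown because each of the first 10 holds a hexamer close to its start. The transport gene KIF3A is given last as one with neither motif in its stretch.
KIF11 (chr10:92593040-92593159, + strand): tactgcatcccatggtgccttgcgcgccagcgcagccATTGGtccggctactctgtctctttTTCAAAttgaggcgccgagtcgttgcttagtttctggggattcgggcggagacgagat
KIF14 (chr1:200620722-200620841, - strand): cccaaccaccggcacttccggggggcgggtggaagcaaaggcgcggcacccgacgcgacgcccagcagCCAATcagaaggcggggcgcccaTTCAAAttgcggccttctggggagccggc
KIF15 (chr3:44761704-44761823, + strand): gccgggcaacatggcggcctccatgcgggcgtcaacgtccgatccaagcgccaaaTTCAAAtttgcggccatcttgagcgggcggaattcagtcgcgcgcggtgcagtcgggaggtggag
KIF18A (chr11:28108127-28108246, - strand): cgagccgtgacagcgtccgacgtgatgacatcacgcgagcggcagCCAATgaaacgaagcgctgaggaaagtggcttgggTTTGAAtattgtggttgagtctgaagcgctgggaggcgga
KIF18B (chr17:44947744-44947863, - strand): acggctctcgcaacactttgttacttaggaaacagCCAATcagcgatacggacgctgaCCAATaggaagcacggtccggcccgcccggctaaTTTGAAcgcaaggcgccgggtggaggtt
KIF20A (chr5:138179022-138179141, + strand): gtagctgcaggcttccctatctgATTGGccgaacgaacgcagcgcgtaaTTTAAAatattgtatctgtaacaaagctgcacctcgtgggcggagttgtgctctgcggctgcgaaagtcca
KIF22 (chr16:29790661-29790780, + strand): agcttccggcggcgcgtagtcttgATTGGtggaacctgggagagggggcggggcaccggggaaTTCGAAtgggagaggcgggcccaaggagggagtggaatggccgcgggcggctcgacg
KIF23 (chr15:69414259-69414378, + strand): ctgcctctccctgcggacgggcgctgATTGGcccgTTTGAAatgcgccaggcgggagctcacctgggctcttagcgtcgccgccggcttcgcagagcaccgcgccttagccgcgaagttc
KIF2C (chr1:44739747-44739866, + strand): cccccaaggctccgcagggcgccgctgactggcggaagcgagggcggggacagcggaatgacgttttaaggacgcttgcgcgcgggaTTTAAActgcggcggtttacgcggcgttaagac
KIF4A (chrX:70290014-70290133, + strand): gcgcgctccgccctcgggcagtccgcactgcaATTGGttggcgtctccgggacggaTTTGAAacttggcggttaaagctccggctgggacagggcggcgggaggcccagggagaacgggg
KIF3A (chr5:132737517-132737636, - strand): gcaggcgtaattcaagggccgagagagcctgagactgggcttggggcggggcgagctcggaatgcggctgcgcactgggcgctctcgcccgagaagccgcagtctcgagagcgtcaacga

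Counted from the annotated start, the hexamer nearest to it began at -55 in KIF23, -41 in KIF20A, -35 in KIF15, -34 in KIF4A, -28 in KIF11, -27 in KIF22, -10 in KIF18A and -3 in KIF2C. It began just inside the transcript at 2 in KIF14, 3 in KIF18B and 4 in KIF4B, and KIF20B held TTTGAA at both 25 and 31. In the 2 transport genes with a match, KIF5B and KIF16B, it lay farther upstream, at -140 and -241. The ciliary gene KIF24 held TTCGAA at 2. Farther upstream, KIF14 and KIF23 held a second hexamer at -198 and -211. The hexamer of KIF22 was found again at -244 from another annotated start, which is the same site. The share of all genes with a hexamer this close to the start was not computed, so these positions have no background. A match is a description of these letters only, and a window without a match says nothing about binding.

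**Figure D2:**
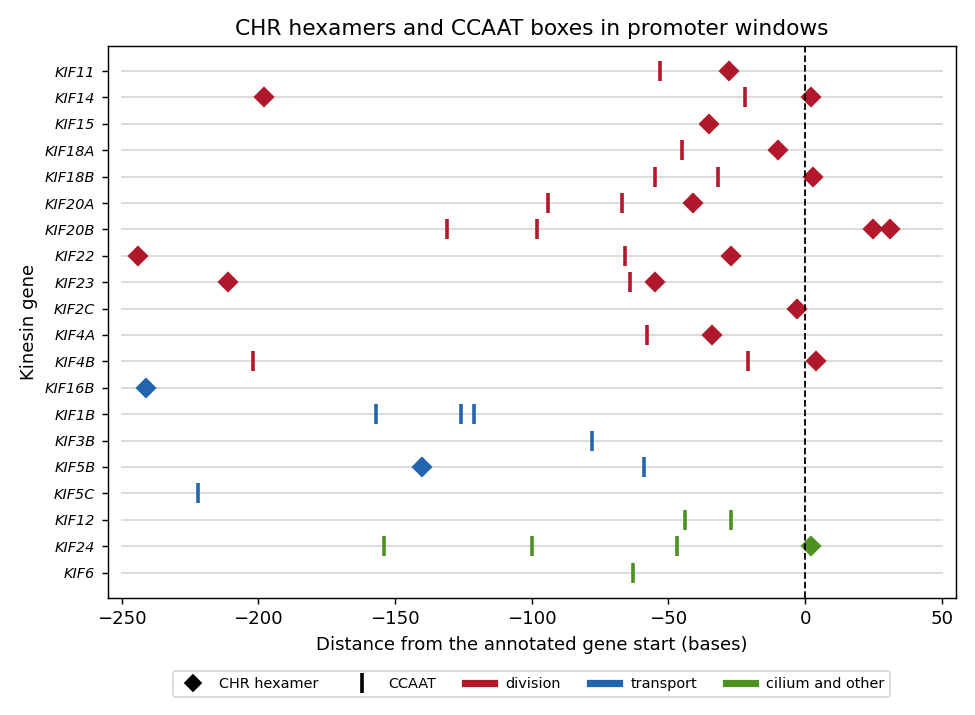
Positions of CHR hexamers (diamonds) and CCAAT boxes (bars) relative to the annotated start (dashed line, in bases) in the promoter windows of the kinesin genes with any match, with division genes at the top, then transport, then cilium and other genes. The hexamer nearest the start lies between -55 and 31 in each of the 12 division genes with one, a range read from these hits. Others lie at -198 in KIF14 and -211 in KIF23. The mark at -244 in KIF22 is the same site seen from a second annotated start. Those of KIF5B and KIF16B lie at -140 and -241, and that of the ciliary gene KIF24 lies at 2. The share of all genes with a hexamer in that range was not computed.

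KIF4B, an intronless copy of KIF4A on chromosome 5, had 4, 3 and 1 counts, against 2823, 5536 and 3003 counts of KIF4A on the X chromosome. Their coding sequences were identical at 95.9% of 3699 aligned bases in the GENCODE 29 transcripts, with 152 mismatches and a longest identical run of 151 bases, so reads of the copies can be confused and the KIF4B count is uncertain. Over the first 90 coding bases the copies differ at 2 positions, shown in capitals, which illustrates how few letters tell their reads apart.
KIF4A: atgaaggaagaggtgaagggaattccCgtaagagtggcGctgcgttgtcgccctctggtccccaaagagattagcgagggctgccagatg
KIF4B: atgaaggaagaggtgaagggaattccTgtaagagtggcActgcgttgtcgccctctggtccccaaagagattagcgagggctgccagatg
Per kb KIF4A exceeded KIF4B by 682 times in replicate 1, with an exact 95% binomial interval of 266 to 2503. The ratio was 1782 in replicate 2 (interval 609.5 to 8645) and 2900.3 in replicate 3 (interval 520.2 to 114594). The intervals overlap, so the ratio did not differ detectably between libraries. No other pair of related kinesin genes compared here was as close. Their identity over aligned coding bases, with unaligned bases left out, ran from 69.6% for KIF18A and KIF18B to 78.3% for KIF1C and KIF1B. None of these other pairs had an identical run above 29 bases.

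Transport genes were all detected, with 9 above the median gene, 2 below and 4 not distinguished. The kinesin-1 heavy chain gene KIF5B, the ubiquitous motor for vesicles and mitochondria, was the highest of them at 52.0, 34.7 and 54.9 CPM per kb. Its log2 distance from the median gene was 3.09 ± 0.08 (SE; edgeR, adjusted p = 2.5e-09), and its lowest value was in replicate 2. Of the neuronal kinesin-1 genes, KIF5C stood at 9.64, 11.8 and 11.9 CPM per kb and was called above the median gene. KIF5A, which is mutated in inherited motor neuron diseases, stood at 5.18, 7.81 and 5.51 CPM per kb, highest in replicate 2, and could not be told from the median gene (edgeR, adjusted p = 0.236). KIF5B lies on chromosome 10 from 32009010 to 32056431 and KIF5C on chromosome 2 from 148875250 to 149026759.

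Kinesin-2 motors are heterotrimers of KIF3A with KIF3B or KIF3C and the accessory protein KIFAP3, and they carry cargo in axons and in the cilium. KIF3B stood at 12.8, 13.4 and 14.6 CPM per kb, KIF3C at 10.4, 11.1 and 9.91, and KIF3A, the shared partner, at 7.52, 8.29 and 8.24. KIFAP3 stood at 8.71, 8.92 and 7.42 CPM per kb, in the range of KIF3A. All 4 of these genes lay above the median gene. KIF17, the homodimeric kinesin-2 of dendrites and cilia, lay below it, at 3.49, 2.602 and 2.66 CPM per kb (log2 distance -0.93 ± 0.14 SE; edgeR, adjusted p = 2.0e-04).

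Kinesin-3 genes had mean levels from 0.778 to 22.1 CPM per kb. KIF1B, which carries mitochondria and synaptic vesicle precursors, stood at 22.5, 22.2 and 21.5 CPM per kb, with a spread of 0.496 CPM per kb (SD, n = 3). KIF1A, the neuronal carrier of synaptic vesicle precursors and dense core vesicles, stood at 0.750, 0.960 and 0.625 CPM per kb and lay 2.82 ± 0.18 (SE) below the median gene on the log2 scale (edgeR, adjusted p = 9.9e-07). Its values lay above only 16.1% of detected genes on average. KIF1C, which moves vesicles and integrins, stood at 14.3, 11.3 and 12.1 CPM per kb. The remaining members were near the median gene and not distinguished from it: KIF13A at 5.88, 6.27 and 5.57 CPM per kb, KIF13B at 4.64, 5.74 and 4.33, and the endosome motor KIF16B at 5.55, 5.10 and 4.97. Without replicate 2, KIF13B was called below the median gene (log2 distance -0.31; edgeR, adjusted p = 0.00440; from 4.3e-06 to 0.837 over its 12 alternatives), and it reversed to above it where length was left out or every gene with a count was kept.

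The neuronal kinesin-4 genes were both above the median gene. KIF21A, in which mutations cause congenital fibrosis of the extraocular muscles, stood at 28.6, 19.0 and 26.4 CPM per kb, again lowest in replicate 2. KIF21B stood at 11.4, 11.1 and 8.79 CPM per kb, lowest in replicate 3.

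None of the 7 detected cilium and other genes lay above the median gene, 5 lay below it, and KIF12 and KIF26A were not distinguished. All 5 detected ciliary genes were among those below. KIF24, which acts at centrioles, stood at 2.87, 2.86 and 3.39 CPM per kb, and KIF27 at 3.11, 1.95 and 2.61. KIF7, the ciliary regulator of Hedgehog signalling, stood at 2.21, 1.72 and 1.57 CPM per kb, and 11.8% of its exon bases lie opposite another gene. KIF9, a motor of motile cilia and sperm flagella, stood at 0.957, 0.836 and 0.956 CPM per kb, with 14.9% of its exon bases opposite another gene. KIF6 was the lowest detected kinesin gene, at 0.207, 0.203 and 0.197 CPM per kb, 4.77 ± 0.24 (SE) below the median gene on the log2 scale (edgeR, adjusted p = 2.3e-07). KIF19, which shortens motile cilia in mice, was not detected, with 6, 7 and 8 counts.

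KIF12, first described in kidney, stood at 3.43, 4.56 and 5.84 CPM per kb, and the 3 values differed by more than counting error (chi-square test, adjusted p = 3.0e-10). KIF26A, an atypical kinesin without motor activity in the mouse, stood at 6.18, 5.78 and 5.10 CPM per kb. Its relative KIF26B had 0, 4 and 0 counts. KIF26A was therefore at least 737-fold higher per kb than KIF26B in replicate 1 and at least 587-fold higher in replicate 3, with a count of 0 taken to allow 3 counts per library, and 890-fold higher in replicate 2 (exact 95% binomial interval 347 to 3271). KIF25 was the 1 kinesin gene with no count in any library, which allows up to 0.0348, 0.0203 and 0.0361 CPM per kb in replicates 1, 2 and 3. These intervals and limits cover counting error only.

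Ratios between 16 fixed pairs were computed within each library, so that sequencing depth cancels. The first gene was higher per kb in every library in 10 pairs, the second in 5, and the order of KIF3A and KIFAP3 differed between libraries. A two-sided exact sign-flip test over 3 libraries cannot go below p = 0.25, which 14 of the 15 pairs tested reached (adjusted p = 0.268) and KIF3A with KIFAP3 did not (p = 0.75), so the ratios are described by their size and spread. KIF11 exceeded KIF15 by 2.07, 2.01 and 2.23 times in replicates 1, 2 and 3, and KIF2C exceeded KIF2A by 1.87, 2.22 and 1.72 times. KIF18A stood at 0.362, 0.222 and 0.377 times KIF18B. KIF20A was 1.55, 2.604 and 1.18 times KIF20B, and on read counts without length the mean ratio was 0.973, so that order depends on the length used. The KIF11 ratio hardly moved although each of its genes was lowest in replicate 2.

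Within kinesin-1, KIF5B exceeded KIF5A by 10.0, 4.44 and 9.96 times and KIF5C by 5.39, 2.93 and 4.59 times, with the smallest ratio in replicate 2 in both pairs. KIF5C exceeded KIF5A by 1.86, 1.51 and 2.17 times. KIF3A was 0.587, 0.617 and 0.565 times KIF3B, the narrowest spread on the log2 scale (SD 0.06, n = 3), and KIF3C was 0.808, 0.825 and 0.680 times KIF3B. KIF3A relative to KIFAP3 was 0.863, 0.929 and 1.11. KIF1A was 0.0333, 0.0432 and 0.0290 times KIF1B, and KIF1C was 0.634, 0.508 and 0.561 times KIF1B. KIF13A was 1.27, 1.09 and 1.29 times KIF13B, and KIF21A was 2.50, 1.71 and 3.003 times KIF21B.

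**Figure D3:**
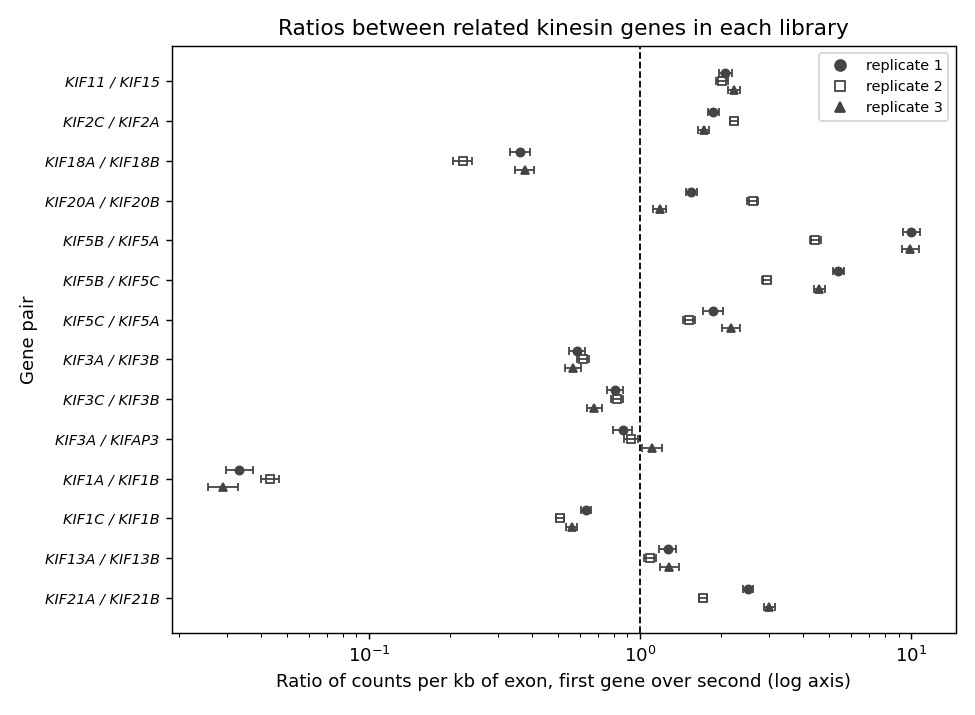
Ratio of counts per kb of exon for 14 pairs of kinesin and partner genes in each library on a log axis, with exact 95% binomial intervals that cover counting error only, and a dashed line at equal levels. The KIF1A to KIF1B ratio is the lowest, at 0.0290 to 0.0432, and the KIF5B to KIF5A ratio is the highest, at 4.44 to 10.0. The interval of replicate 2 (open squares) lies clear of both other libraries for the pairs led by KIF18A, KIF20A, KIF5B and KIF21A. The same holds for KIF2C to KIF2A, KIF5C to KIF5A, KIF1A to KIF1B, KIF1C to KIF1B and KIF13A to KIF13B.

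Kinesins named otherwise and the partners of the family gave the following levels, and their counts too are to be read against the 45.8% of all genes called above the median and the 45% called below. The minus-end mitotic motor gene KIFC1 stood at 31.4, 29.4 and 29.1 CPM per kb, near KIF11 and KIF20A, and the kinetochore motor gene CENPE at 17.3, 8.07 and 15.1 CPM per kb, lowest in replicate 2. KIFC2, KIFC3 and STARD9 lay below the median gene, at means of 3.83, 2.41 and 2.21 CPM per kb. Of 11 partners of the mitotic kinesins 10 lay above the median gene, led by TPX2, which brings KIF11 to the spindle (mean 130 CPM per kb), AURKB, the kinase that controls KIF2C (57.3), and NUSAP1 (50.1). The lowest was PRC1, the midzone partner of KIF4A, at 0.252 CPM per kb. These 2 levels are uncertain, for an annotated neighbour on the same strand covers 93.3% of the coding bases of PRC1, and another covers 87.9% of those of NUSAP1.

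Of the kinesin-1 light chain genes and KIFAP3, KLC2 (mean 13.1 CPM per kb) and KIFAP3 (8.35) lay above the median gene, KLC4 (3.11) and KLC1 (1.42) below it, and KLC3 was not detected (7, 25 and 6 counts). The KLC1 level is uncertain, with 76.6% of its coding bases also in a neighbouring gene model. Transport adaptors and regulators numbered 18, of which 12 were called above the median and 4 below. SPAG9, which links kinesin-1 to JNK signalling (29.2 CPM per kb), the mitochondrial receptor gene RHOT2 (26.6) and PLEKHM2, which joins lysosomes to kinesin-1 (23.7), were highest. FEZ1 (0.570) was the lowest detected, and HAP1 had 3, 3 and 0 counts. Among 23 dynein and dynactin genes, the machinery of movement towards microtubule minus ends, 20 lay above and 3 below, led by the LIS1 gene PAFAH1B1 (40.9), DYNLL1 (34.9) and DYNLRB1 (30.6), with DYNC1I1 lowest (0.508). Some calls among the adaptors and the dynein genes lay close to the threshold (edgeR, adjusted p up to 0.0497). The calls of partner genes were not repeated in the alternative analyses. Of 11 genes of the DREAM, MuvB and FOXM1 machinery, 10 lay above the median gene, with MYBL2 (123), TFDP1 (56.4) and RBBP4 (38.2) highest and RBL1 (6.80) lowest, and LIN37 was not detected (9, 27 and 15 counts, with 95.1% of its coding bases shared with another gene).

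Kinesin genes varied between libraries by more than counting error in 31 of 34 cases (chi-square test of homogeneity, adjusted p under 0.05), where 68.7% of all detected genes were called. With at least 1 CPM in every library, 31 of 34 kinesin genes and 73.6% of all genes were called. The exceptions with all detected genes were KIF22, KIF9 and KIF6. KIF9 had 139, 209 and 134 counts and KIF6 61, 103 and 56, so a spread in these 2 could be missed for lack of counts. By direction, 19 of 34 kinesin genes and 9 of 12 division genes were lower in replicate 2 than in the mean of replicates 1 and 3, against 49.6% of all detected genes. Replicate 2 stood well apart for some of them. In it KIF14 stood at 0.399 times the level of the other libraries (the geometric mean of replicates 1 and 3), KIF20B at 0.486, KIF18A at 0.576, KIF11 at 0.577 and KIF15 at 0.618. The same held for KIF5B (0.650), KIF27 (0.684) and KIF21A (0.690), and outside the family CENPE stood at 0.4999 and the cytokinesis factor gene ECT2 at 0.633. In the other direction KIF5A stood at 1.46 and KIF1A at 1.40 times the other libraries. Values of this ratio under 0.707 were found in 8 of 34 detected kinesin genes, 5 of them division genes, and in 7.06% of all detected genes; values under 0.5 were found in KIF14 and KIF20B and in 1.16% of all detected genes. KIF14 was lower in replicate 2 than all but 59 of the 14612 detected genes by this measure.

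The departure of replicate 2 moved with base composition. Over all detected genes with a known transcript, the median log2 departure was -0.20 for the 2238 genes with a GC content under 40% and 0.10 for the 1892 genes at 60% or more. Of the 7 kinesin genes under 40% GC, KIF20B (34.2% GC), KIF18A (37.0%), KIF14 (38.3%), KIF11 (38.3%), KIF5B (39.1%) and KIF27 (39.9%) were low in replicate 2, and their departures lay from -0.55 to -1.32 on the log2 scale. KIF3A (37.8%) was the exception, at 0.07, and its partner gene KIFAP3, also at 37.8% GC, stood at 0.15. KIF14 was lower than all but 20 of the 2238 genes in that GC range. The share of those genes lower still was 3.08% for KIF20B, 8.22% for KIF18A and 8.27% for KIF11. For KIF5B it was 13.85%, for KIF27 17.2% and for KIF3A 84.05%. KIF15, at 41.2% GC, was low too, at -0.70. At a similar GC content, however, the division genes KIF2A (41.6%) and KIF23 (42.3%) stood at only -0.14 and -0.16. Division genes of higher GC content lay closer to 0: KIF20A (48.4%) stood at -0.10, KIF4A (46.4%) at 0.12, KIF2C (50.4%) at 0.17, KIF22 (58.9%) at 0.06 and KIF18B (58.4%) at -0.06. Across the 34 detected kinesin genes, which share the same 3 libraries, GC content and departure had a Pearson r of 0.60 and a Spearman rho of 0.53; across the 12 division genes these were 0.77 and 0.90, and across all 13533 genes 0.31 and 0.34. Genes are not independent replicates, and these values are descriptions. After each library was scaled by a smooth curve on GC content, an alternative chosen after seeing the data, 27 of 34 kinesin genes still varied beyond counting error, where 66.8% of all detected genes did. The part of base composition in the low values of replicate 2 was not tested beyond this.

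**Figure D4:**
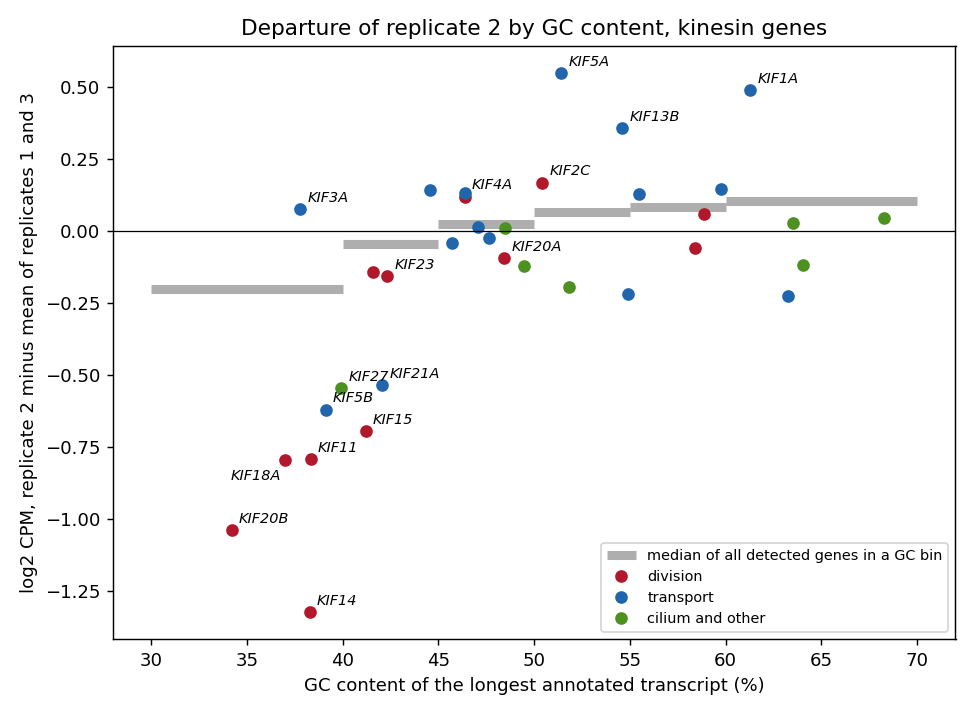
Difference in log2 CPM between replicate 2 and the mean of replicates 1 and 3 against the GC content of the longest annotated transcript for the 34 detected kinesin genes, coloured by class, with grey bars at the median of all detected genes in each GC range (the outer ranges are open-ended). KIF14, KIF20B, KIF18A, KIF11 and KIF15 lie from -0.70 to -1.32, below the grey bars, whereas KIF3A, at a similar GC content, lies at 0.07.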

How the data were processed

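The authors deposited 1 table of raw read counts per gene symbol with 1 column for each of 3 libraries, matched by title; STAR 2.6.1b and hg38 are named, with no role, in the submitters' processing notes. How reads were counted, with which annotation and strand option, is not given in the sources used here. Rows turned into dates by a spreadsheet (0.0665%, 0.0707% and 0.0736% of counts) were left out. Exon lengths, positions and GC content came from GENCODE release 29 (GRCh38), known for 92.6% of detected genes and all 39 kinesin genes. Effective library sizes were totals times TMM factors (edgeR 4.0.16). Since the labels form 1 group, each gene's rate per kb was tested against the median detected gene with edgeR's quasi-likelihood F test of an intercept, with Benjamini-Hochberg adjustment over 13533 genes; SE is the log2 distance over the root of F. Alternatives used limma 3.58.1 (prior count 2), DESeq2 1.42.0 and R 4.3.3. The chi-square test compared counts with effective library sizes. Coding sequences were aligned with Biopython 1.88. The members, roles, lists and pairs were chosen with earlier results of these data known. Every member is named; of partner lists the 3 highest, the lowest detected and the undetected genes are.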

Additional observations from a re-analysis of the deposited data

How the results depend on the processing

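As reported, 20 kinesin genes exceeded the median gene and 7 fell short of it; limma-trend and DESeq2's Wald test gave the same counts. Over all alternatives 20 to 27 lay above (27 of 38 tested when every gene with a count was kept, 25 without length) and 7 to 10 below. Of all genes tested, 44.2% to 47.3% were called above and 43.2% to 46.9% below in these alternatives. Leaving out each library gave 20 to 21 above, 7 to 8 below, 21 to 25 with spread beyond counting error (31 with all 3) and 10 pairs with the first gene higher. Without replicates 1, 2 and 3 in turn, 52.8%, 39% and 51.1% of all genes had such a spread, against 68.7% with all 3. The median log2 distance was 1.74 for division genes (1.94 as reported) and 0.71 for transport genes (0.92 as reported) with at least 1 CPM in every library, and 1.21 for transport genes without length. Log2 distances changed sign when every gene with a count was kept, which lowers the median gene: KIF12 0.67, KIF13B 0.76, KIF16B 0.84, KIF17 0.0022 and KIF24 0.065. Without length they did so for KIF13B (0.92) and KIF16B (0.48), as did the log2 ratio of KIF20A to KIF20B (-0.040), and with the longest transcript for KIF26A (-0.41); the cause was not tested. A further 10 sign changes were of genes not distinguished from the median gene in either analysis, and the log2 ratio of KIF3A to KIFAP3, of mixed order as reported, was 0.41 without length. No paired analysis was possible because the labels form 1 group. Depth limits the 5 undetected genes, all under 10 counts.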
